A study of Mus musculus with 6 samples.

Results

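The 10 genes described here encode the CDK inhibitors of the mouse and the D-type cyclins, taken by symbol from a table of 47729 genes. They are the CIP/KIP inhibitors Cdkn1a, Cdkn1b and Cdkn1c, the INK4 inhibitors Cdkn2a, Cdkn2b, Cdkn2c and Cdkn2d, and the cyclins Ccnd1, Ccnd2 and Ccnd3. Transcripts were measured by RNA sequencing in 2 mouse mammary carcinoma cell lines, 4T1 and 4TO7, both of the BALB/c strain, with 3 libraries per line and no treatment in either. Both lines are transplantable models of breast cancer; 4T1 is known for forming metastases and 4TO7 for failing to form them after it spreads. Each line is a single line grown in serum-supplemented medium, and the labels do not say whether its 3 cultures were independent, so p-values measure the spread between these libraries, which may be technical.

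D-type cyclins bind and activate CDK4 and CDK6, which phosphorylate the retinoblastoma protein and so free E2F factors to transcribe genes for DNA replication. INK4 proteins bind CDK4 and CDK6 and keep D-type cyclins off them. CIP/KIP proteins bind cyclin-CDK complexes, inhibit CDK2, and can also help cyclin D-CDK4 complexes to assemble. Several of these inhibitors are lost in tumours, and cyclin D1 is commonly raised in breast cancer.

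Values are gene read counts divided by a size factor per library, called normalised counts below. The libraries held 33605566 to 39072639 assigned reads. 4TO7 replicate 2 stood apart from its line on the second principal component (5.27% of the variance). All 8 markers of mammary carcinoma epithelium were called higher in 4T1 in the test described below, against 25.1% of all tested genes. Krt19, Cldn3 and Cldn4 passed the low-value limit of that test only through the 4T1 libraries. The 8 markers had a summed normalised count of 195842 to 217525 in 4T1 and 25839.8 to 42486 in 4TO7. Krt8 and Krt18 made up nearly all of the 4TO7 sum. Krt19 and Cldn3, defining genes of the labelled tissue, had 4 reads each in all of 4TO7. Fibroblast markers summed to 589.9 to 1372 in 4T1 and 1721 to 7522 in 4TO7, with Col3a1 and Lum at 0 in every library. Pdgfra carried nearly all of that sum (means of 897 and 5286), and Col1a1 was low in both lines and lower in 4TO7 (10.2 and 4.19). Leukocyte markers (8 of 9 found, 4 at 0 in every library) summed to 251 to 470.1 and 93.6 to 165, and endothelial markers to 27.9 to 68.6 and 57.7 to 78.6. The part of these markers in the differences below was not tested. In bulk libraries, fewer cells that express a gene and less RNA per cell cannot be told apart.

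Differences were tested with limma on log2(normalised count + 1), which understates changes of low genes, over the 14276 genes that reached 10 normalised counts in 3 or more libraries. Adjusted p-values are Benjamini-Hochberg values over all of these genes, and a call means an adjusted p under 0.05. Of the 10 members, 7 were tested, and Cdkn1c, Cdkn2a and Cdkn2b lay below the limit. Of these, 1 (Ccnd2) was called higher in 4T1, where 25.1% of all tested genes were called higher. Cdkn1b and Cdkn2c were called higher in 4TO7, where 23.9% of all tested genes were called. The remaining 4 (Cdkn1a, Cdkn2d, Ccnd1 and Ccnd3) were not called. The libraries of the lines did not overlap for 4 of 7 tested members, against 58.4% of all tested genes, so both shares lay near those of the whole table and say nothing particular about these genes. The median log2 fold change, 4T1 minus 4TO7, was -0.24 over the 7 members and 0.03 over all tested genes, and 6 of the 7 were lower on average in 4T1.

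**Figure D1:**
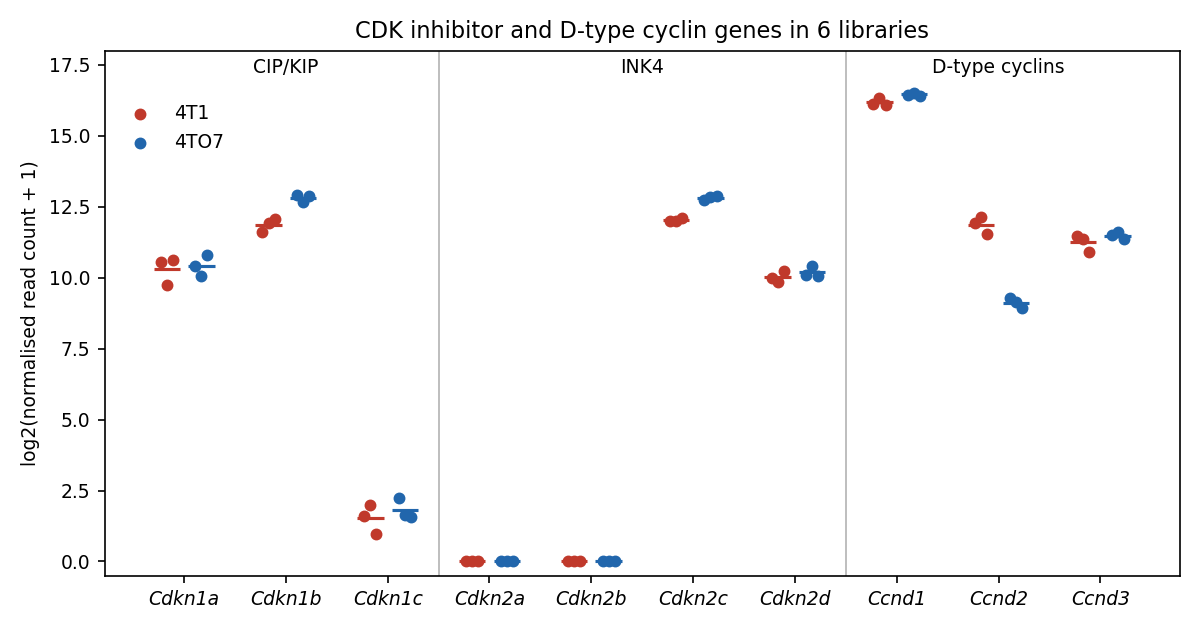
Each point is the log2(normalised read count + 1) of 1 gene in 1 library, red for 4T1 and blue for 4TO7, with a bar at the mean of the line's 3 libraries. Ccnd2 is the tested gene whose 4T1 points all lie above 4TO7, Cdkn1b, Cdkn2c and Ccnd1 have all 4TO7 points above 4T1, and Cdkn2a and Cdkn2b lie at 0 in all 6 libraries.

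The cyclin genes moved separately: Ccnd2 was higher in 4T1, while Ccnd1 and Ccnd3 were not called. Ccnd2 (ENSMUSG00000000184, chromosome 6, 127125162 to 127152193, minus strand, GRCm38) encodes cyclin D2. In 4T1 its normalised counts were 3939.8, 4481 and 2957 (replicates 1 to 3, in this order throughout), and in 4TO7 they were 623, 566 and 489. Every 4T1 library lay above every 4TO7 library, and the lowest 4T1 library was still far above the highest of 4TO7. The means were 3792 ± 772 (SD, n = 3) and 559 ± 67.5 (SD, n = 3), a 6.78-fold difference. On the log2 scale the difference was 2.75 ± 0.19 (SE, 95% interval 2.31 to 3.18, limma adjusted p = 9.6e-06). The authors' deposited table gives -2.76 for 4TO7 over 4T1, with an adjusted p of 6.93e-36. Antisense genes that share 372 and 368 exon bases with Ccnd2 had at most 4 reads in any library.

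Ccnd1 (ENSMUSG00000070348, chromosome 7, 144929931 to 144939925, minus strand) encodes cyclin D1. Its normalised counts were 71833, 82226 and 70482 in 4T1 and 89638, 93993 and 86848 in 4TO7. All 4TO7 libraries lay above all 4T1 libraries, by a margin smaller than the range within 4T1. The means were 74847 ± 6426 and 90159.6 ± 3601 (SD, n = 3 each), and the log2 difference was -0.27 ± 0.12 (SE, 95% interval -0.54 to -0.0018). The limma adjusted p was 0.0878, so Ccnd1 was not called although its libraries did not overlap. Scaling to equal totals per library (log2 difference -0.40, adjusted p = 0.0191) or quantile normalisation (-0.39, adjusted p = 0.023) turned this into a call; over 16 alternatives the adjusted p ran from 0.0191 to 0.254. The authors' deposited table gives 0.27 for 4TO7 over 4T1 with an adjusted p of 0.136. The gene shares 1100 exon bases with Oraov1 on the opposite strand, which had 572 to 881 reads per library. No source used here says if the counting was stranded.

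Ccnd3 (ENSMUSG00000034165, chromosome 17, 47505051 to 47599691, plus strand) encodes cyclin D3. In normalised counts it had 2815, 2647 and 1935 in 4T1 and 2902, 3100.1 and 2629 in 4TO7. The lines overlapped, and 4T1 replicate 3 was the lowest library. The means were 2466 ± 467 and 2877 ± 237 (SD, n = 3 each), with a log2 difference of -0.24 (95% interval -0.63 to 0.15, limma adjusted p = 0.28). That interval leaves room for a difference of up to 1.55-fold. Bysl, on the opposite strand with 361 shared exon bases, had 597 to 2895 reads per library.

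To compare the cyclins with each other, normalised counts were divided by the summed exon length in kilobases. That length counts all annotated exons of a gene. The length of the transcripts present was not measured, so the order between genes depends on this choice. Per kilobase, Ccnd1 made up 95.9 ± 0.6% of the D-type cyclin signal in 4T1 and 98.0 ± 0.1% in 4TO7 (SD, n = 3 each). The share of Ccnd2 was 2.62, 2.61 and 2.03% in 4T1 and 0.341, 0.295 and 0.276% in 4TO7, so the shares of the lines were well apart. The share of Ccnd3 was 1.69 ± 0.29% and 1.68 ± 0.07%. With these lengths there was more Ccnd2 than Ccnd3 per kilobase within each 4T1 library, and in 4TO7 the order was the opposite. Across the 4T1 libraries the levels of the pair overlapped, with the lowest Ccnd2 at 314 and the highest Ccnd3 at 321. The log2 ratio of the Ccnd2 to the Ccnd3 normalised count, which carries no length correction, was 0.62 ± 0.14 in 4T1 and -2.37 ± 0.13 in 4TO7. Against Ccnd1 it was -4.32 ± 0.22 and -7.34 ± 0.16. Summed over the 3 cyclins, normalised counts were 81105 ± 7322 and 93596 ± 3865; the sum followed Ccnd1, the dominant transcript. These ratios and shares describe the same counts as above and were given no test of their own.

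**Figure D2:**
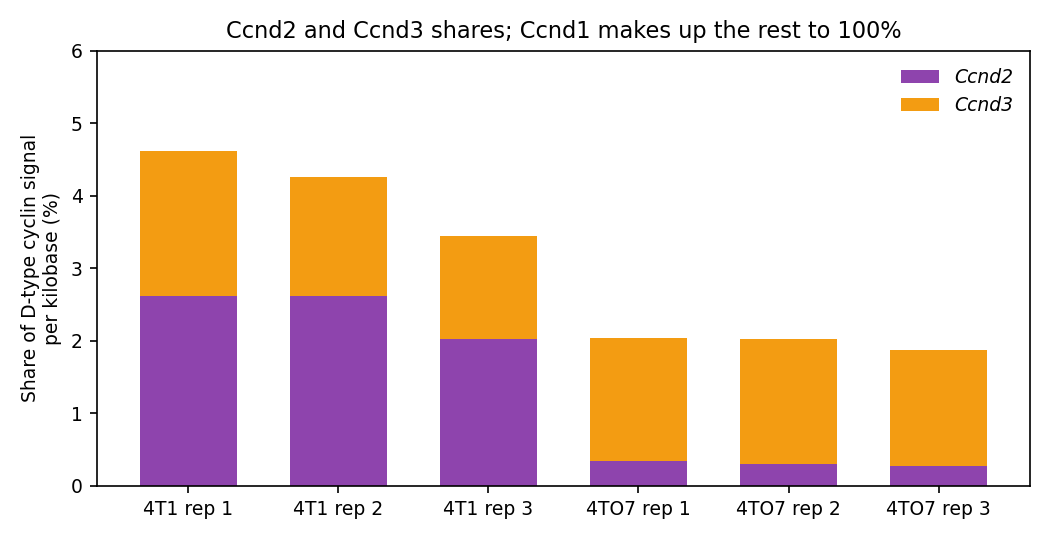
Bars give the percent of the D-type cyclin signal per kilobase that came from Ccnd2 (purple) and Ccnd3 (orange) in each library, on an axis from 0 to 6%. The purple part is 2.03 to 2.62% in 4T1 and 0.276 to 0.341% in 4TO7, and Ccnd1 makes up the rest to 100%.

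Among CIP/KIP inhibitors, Cdkn1b was higher in 4TO7, Cdkn1a was not called and Cdkn1c was barely detected. Cdkn1b (ENSMUSG00000003031, chromosome 6, 134920401 to 134925513, plus strand) encodes p27Kip1, which holds CDK2 inactive in quiescent cells. Its normalised counts were 3129, 3931 and 4273 in 4T1 and 7776, 6471 and 7565 in 4TO7. The lowest 4TO7 library lay above the highest 4T1 library. The means were 3777 ± 587 and 7271 ± 701 (SD, n = 3 each), a 1.92-fold difference, with a log2 difference of -0.95 ± 0.16 (SE, 95% interval -1.31 to -0.59, limma adjusted p = 0.00153). The authors' deposited table gives 0.94 for 4TO7 over 4T1 (adjusted p of 2.94e-06). No annotated gene shares exon bases with it.

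Cdkn1a (ENSMUSG00000023067, chromosome 17, 29090976 to 29100727, plus strand) encodes p21Cip1, the best-known cell cycle target of p53. The libraries gave normalised counts of 1501, 867 and 1564 in 4T1 and 1358, 1071 and 1781 in 4TO7. Replicate 2 was the lowest library of both lines, and the lines overlapped. The means were 1311 ± 386 and 1403 ± 357 (SD, n = 3 each), and the log2 difference was -0.12 (95% interval -0.74 to 0.51, limma adjusted p = 0.745). The sign turned without 4T1 replicate 2 (0.16) and without 4TO7 replicate 3 (0.07). On the log2 scale its standard error (0.27) was the widest of the 7 tested members, and its interval leaves room for up to 1.67-fold. The log2 ratio of Cdkn1b to Cdkn1a was 1.56 ± 0.57 in 4T1 and 2.40 ± 0.27 in 4TO7.

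Cdkn1c (ENSMUSG00000037664, chromosome 7, 143458339 to 143461050, minus strand) encodes p57Kip2 and is imprinted, with the maternal copy active. It had 2, 3 and 1 reads in 4T1 and 4, 2 and 2 reads in 4TO7. With 6 and 8 reads in all, the depth-corrected ratio of 4T1 to 4TO7 was 0.749 (95% interval 0.214 to 2.46, counting error only), and a difference was not detectable at this depth. Part of the domain that holds it was transcribed in both lines, and 1 of its 11 listed genes had no read in any library. Of the 11, 8 were tested, and 3 were called higher in 4T1 and 1 in 4TO7. The shares of all tested genes were 25.1% and 23.9%. Phlda2, a growth-restricting imprinted gene, had a normalised count of 732 ± 237 in 4T1 and 35.7 ± 14.6 in 4TO7 (20.5-fold, log2 difference 4.33 ± 0.36, limma adjusted p = 2.9e-05). Kcnq1, a potassium channel gene, had 186 reads in 4T1 and 1 in 4TO7 (ratio 185.8, 95% counting interval 32.9 to 7378). Kcnq1 is 1 of the 3 called higher in 4T1, and it passed the low-value limit only through the 4T1 libraries. Osbpl5 was 1.80-fold higher in 4T1. Cd81 was 1.71-fold higher in 4TO7, but the adjusted p was 0.051 when 4T1 replicate 1 was left out and 0.0515 when 4TO7 replicate 1 was. Kcnq1ot1, the long noncoding RNA that silences the domain on the paternal chromosome, had 374 ± 47.5 and 421 ± 103 (limma adjusted p = 0.597). It lies antisense within Kcnq1, so reads of the pair may be mixed. In 4TO7 Kcnq1ot1 had 1279 reads where Kcnq1 had 1, and such mixing was not tested.

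Among INK4 inhibitors, Cdkn2c was higher in 4TO7, Cdkn2d was not called, and Cdkn2a and Cdkn2b had no read. Cdkn2c (ENSMUSG00000028551, chromosome 4, 109660876 to 109667189, minus strand) encodes p18Ink4c. In normalised counts it had 4110.3, 4088 and 4439 in 4T1 and 6774, 7341 and 7512 in 4TO7. The libraries of each line were close together and the lines were far apart. The means were 4212 ± 196 and 7209 ± 386 (SD, n = 3 each), a 1.71-fold difference, with a log2 difference of -0.77 ± 0.12 (SE, 95% interval -1.05 to -0.50, limma adjusted p = 0.00106). The authors' deposited table gives 0.78 for 4TO7 over 4T1 (adjusted p of 2.45e-07).

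Cdkn2d (ENSMUSG00000096472, chromosome 9, 21288410 to 21291407, minus strand) encodes p19Ink4d. Normalised counts of this gene were 1019, 919 and 1192 in 4T1 and 1087, 1375 and 1074 in 4TO7, and the lines overlapped. The log2 difference was -0.17 (95% interval -0.56 to 0.21, limma adjusted p = 0.42), which leaves room for up to 1.48-fold. The log2 ratio of Cdkn2c to Cdkn2d was 2.02 ± 0.13 in 4T1 and 2.62 ± 0.20 in 4TO7.

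**Figure D3:**
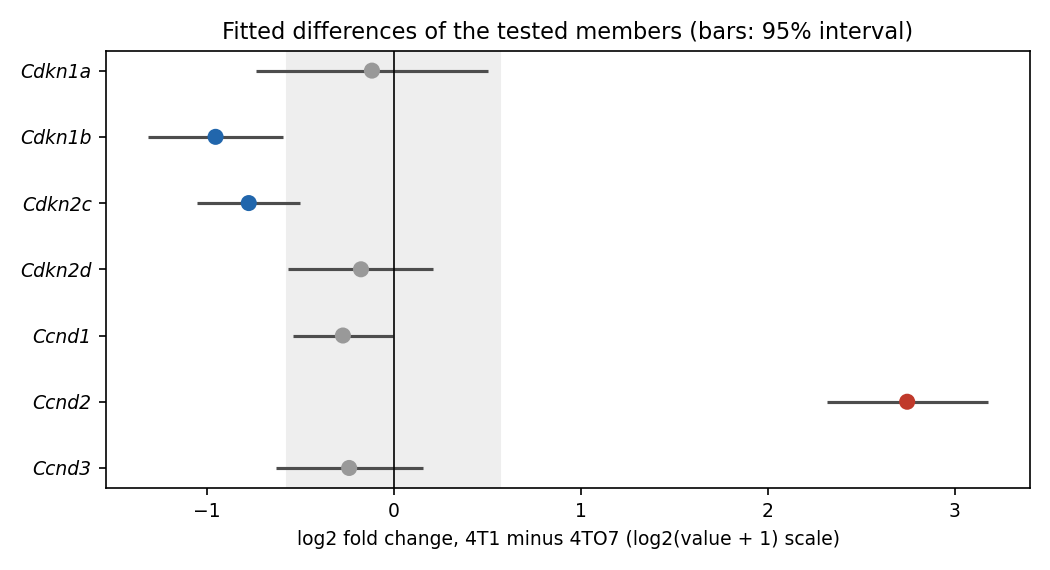
Points give the fitted log2 fold change, 4T1 minus 4TO7, of each of the 7 tested genes with its 95% interval, and the grey band spans the middle of all tested genes (25th to 75th percentile, -0.57 to 0.57). Ccnd2 lies to the right at 2.75, and Cdkn1b and Cdkn2c lie to the left of the band at -0.95 and -0.77.

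Cdkn2a (ENSMUSG00000044303, chromosome 4, 89274471 to 89294653, minus strand) and Cdkn2b (ENSMUSG00000073802, chromosome 4, 89306299 to 89311039, minus strand) were listed at 0 in all 6 libraries. Cdkn2a encodes both p16Ink4a and, from an upstream first exon, p19Arf, which protects p53 from MDM2; Cdkn2b encodes p15Ink4b. A count of 0 in 114704105 reads of 4T1 and 104742527 reads of 4TO7 allows up to 3 reads per line (counting error only), a mean normalised count of up to 0.990 and 0.991. A value of 0 is common in this table: 26.8% of annotated protein-coding genes had none in any library. What lies behind the zeros of Cdkn2a and Cdkn2b was not tested.

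Around this pair, most of the signal lay on the left, and genes on the right had few reads. Mtap, an enzyme of methionine salvage and the nearest protein-coding gene on the left (93.4 kb from Cdkn2a), had a normalised count of 40611 ± 2549 in 4T1 and 43196 ± 1210 in 4TO7 (limma adjusted p = 0.537). The nearest protein-coding gene on the right, Dmrta1, 368 kb from Cdkn2b, had 0, 0 and 0 reads in 4T1 and 4, 0 and 4 in 4TO7. Between Mtap and Cdkn2a lies the long noncoding gene Gm12606, 1.07 kb from the end of Cdkn2a and on its strand, which was chosen after its values were seen. It had 57, 55 and 83 reads in 4T1 and 215, 209 and 245 in 4TO7, so it was read in both lines and more in 4TO7 (normalised means 64.1 ± 13.9 and 221 ± 21.4, log2 difference -1.79 ± 0.24, limma adjusted p = 0.000479). Gm12602, left of Mtap and also chosen after its values were seen, differed the other way (528 ± 50.1 against 188 ± 1.31, log2 difference 1.48 ± 0.18, limma adjusted p = 0.00025). Over all tested genes, 25.1% were called higher in 4T1 and 23.9% in 4TO7. Of 10 genes of the wider region listed by name, 5 were tested, with 0 called higher in 4T1 (0 at an unadjusted p under 0.05, 0 by edgeR and 0 by DESeq2) and 1 higher in 4TO7. That gene was Mllt3, a transcription elongation subunit, at 1942 ± 149 and 3765 ± 285 (limma adjusted p = 0.000568). The count higher in 4TO7 was 2 without 4TO7 replicate 2, with equal totals or by DESeq2, and 3 with quantile normalisation.

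**Figure D4:**
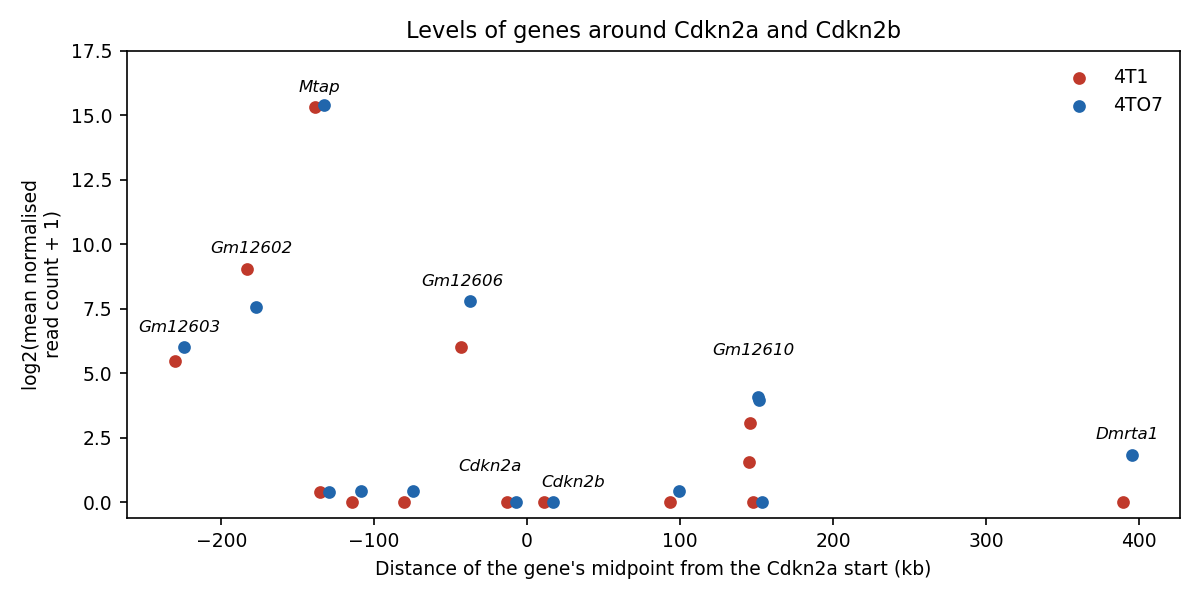
Points give log2(mean normalised read count + 1) of each annotated gene from 300 kb left of Cdkn2a to 400 kb right of Cdkn2b. They are placed by the distance of the gene's midpoint from the Cdkn2a start, red for 4T1 and blue for 4TO7 (shifted sideways to keep both visible). Cdkn2a and Cdkn2b lie at 0 in both lines, between Gm12606 and Mtap on the left, which carry signal, and mostly low genes on the right.

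Promoter sequences of 7 members (11 starts) could be matched by symbol in RefSeq (GRCm38.p6), where 32851 promoters are listed. The 250 bases before the start are printed for the pair of inhibitors higher in 4TO7 and for both starts of Cdkn2a, whose transcripts were not detected, 5′ to 3′ on the gene's strand. Capitals mark matches, on either strand, to 5 motifs: the GC box GGGCGG (in 32.7% of all promoters of this length), CCAAT (33.8%), the E2F site TTTCCCGC (0.895%), the E-box CACGTG (6.02%) and the CRE core TGACGT (6.47%). None of these motifs contains another.
Cdkn1b, chr6:134920151-134920400, plus strand: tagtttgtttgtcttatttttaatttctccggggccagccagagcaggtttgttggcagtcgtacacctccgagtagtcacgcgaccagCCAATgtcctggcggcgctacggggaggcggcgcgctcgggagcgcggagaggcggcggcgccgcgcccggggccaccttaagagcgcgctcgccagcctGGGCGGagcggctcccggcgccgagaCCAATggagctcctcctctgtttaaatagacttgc
Cdkn2c first start, chr4:109666757-109667006, minus strand: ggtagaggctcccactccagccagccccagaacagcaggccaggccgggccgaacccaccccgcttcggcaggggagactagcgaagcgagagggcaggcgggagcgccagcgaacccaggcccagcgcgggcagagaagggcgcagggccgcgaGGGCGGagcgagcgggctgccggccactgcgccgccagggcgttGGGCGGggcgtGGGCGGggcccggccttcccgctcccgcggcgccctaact
Cdkn2a upstream start, chr4:89294620-89294869, minus strand: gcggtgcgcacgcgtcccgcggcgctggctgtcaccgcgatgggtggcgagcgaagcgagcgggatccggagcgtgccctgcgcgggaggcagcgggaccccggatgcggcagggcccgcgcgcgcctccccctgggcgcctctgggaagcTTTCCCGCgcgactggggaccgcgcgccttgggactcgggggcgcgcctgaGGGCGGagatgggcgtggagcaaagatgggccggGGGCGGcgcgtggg
Cdkn2a downstream start, chr4:89282193-89282442, minus strand: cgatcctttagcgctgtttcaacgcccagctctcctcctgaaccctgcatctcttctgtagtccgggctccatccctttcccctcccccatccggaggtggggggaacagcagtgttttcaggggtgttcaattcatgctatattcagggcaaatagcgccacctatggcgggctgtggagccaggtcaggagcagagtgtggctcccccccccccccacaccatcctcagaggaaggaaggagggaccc
The Cdkn1b window holds 1 GC box and 2 CCAAT boxes (161 and 35 bases before the start) and has a GC content of 64.4%. The first start of Cdkn2c has 3 GC boxes and a GC content of 77.2%, and its second start has none of the 5 motifs (42.8%). The upstream start of Cdkn2a, which makes p19Arf, has 2 GC boxes and 1 E2F site (99 bases before the start) with 78.4% GC. The downstream start, which makes p16Ink4a, has none of the 5 (60% GC). The median GC content of all promoters was 52.4%. A match is a description of the letters and not a measured site.

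Per kilobase of exon, Ccnd1 was the most abundant member in both lines, with a mean level of 15894 in 4T1 and 19146 in 4TO7; only 63 and 43 of 14226 ranked genes lay above it. Cdkn2c followed at 1568 and 2684, then Cdkn1b at 829.8 and 1597 and Cdkn2d at 663 and 749. In 4TO7 the libraries of these 4 genes did not overlap each other. In 4T1, Cdkn1b and Cdkn2d did overlap, so their order there is not resolved. Below them in 4T1 came Ccnd2 (403), Cdkn1a (369) and Ccnd3 (281), where each neighbouring pair overlapped. In 4TO7 Cdkn1a (395) and Ccnd3 (328) overlapped, and Ccnd2 (59.4) lay below both. Ccnd2 thus stood at percentile 66.2 of the ranked genes in 4T1 and 27.9 in 4TO7. Cdkn1c, at 0.976 and 1.28, came last among the detected members in both lines. The order between genes rests on the length of all annotated exons, as for the cyclin shares.

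The partners of these genes were read from lists of named genes. The counts below stand beside 25.1% of all tested genes called higher in 4T1 and 23.9% in 4TO7. No list was tested as a set. Of 11 kinases and activators that act at G1, 3 were called higher in 4T1 and 3 in 4TO7 (median log2 difference 0.29). Cdk6, a catalytic partner of D-type cyclins, was at 7299 ± 1211 in 4T1 and 10408 ± 847 in 4TO7 (limma adjusted p = 0.0238); the call was lost without 4T1 replicate 3 (0.0514) and without 4TO7 replicate 3 (0.0858). Cdk4, the other partner, was at 17893 ± 2371 and 14558 ± 740 (limma adjusted p = 0.111) and was not called, although its 4T1 libraries all lay above those of 4TO7. Cdk2, the kinase that p27Kip1 inhibits, was 1.40-fold higher in 4T1, and Cdc25a, a phosphatase that activates it, 1.58-fold higher; each call was lost under 6 of 16 alternatives. Mnat1, a subunit of the CDK-activating kinase, was 1.41-fold higher in 4TO7, a call lost under 2. The count higher in 4T1 was 0 with equal totals and without 4TO7 replicate 1 or replicate 3, 1 without 4T1 replicate 1 or replicate 2, and 5 without 4TO7 replicate 2. The count higher in 4TO7 was 1 without 4T1 replicate 3 or 4TO7 replicate 1 and 0 without 4TO7 replicate 3.

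Of 13 genes of the RB family and E2F factors, 4 were called higher in 4T1 and 3 in 4TO7 (median -0.16). E2f4 (3.46-fold), E2f2 (2.91-fold) and Tfdp1, a dimer partner of E2F factors (1.87-fold), were higher in 4T1 under all 16 alternatives. E2f1 (1.43-fold, limma adjusted p = 0.0212) and Tfdp2, another dimer partner (1.56-fold, limma adjusted p = 0.0339), were called higher in 4TO7. Rb1, the substrate of cyclin D-dependent kinases, had normalised counts of 491, 568 and 968 in 4T1 and 1609, 785 and 1936 in 4TO7. 4TO7 replicate 2 lay within the 4T1 range, and the log2 difference was -1.06 (limma adjusted p = 0.0426). The call was lost under 5 alternatives, where the log2 difference was -1.06 to -0.80 and the adjusted p up to 0.159. The count higher in 4TO7 was 1 without 4T1 replicate 1 or 4TO7 replicate 3, and 0 without 4T1 replicate 2 or 4TO7 replicate 1. It was also 1 with all libraries when limma was run without trend and robust settings.

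Of 14 genes for the turnover of these proteins, 7 were called higher in 4T1 and 0 in 4TO7 by limma (2 at an unadjusted p under 0.05, 1 by edgeR, 0 by DESeq2), with a median of 0.42. The shares of all tested genes were 25.1% and 23.9%. Skp2, the F-box protein that targets p27Kip1 for degradation, was 1.79-fold higher in 4T1. Ddb1 (1.92-fold) and Cul4a (1.45-fold), parts of the ligase that degrades p21Cip1 during replication, were also higher. So was Fbxo31 (1.49-fold), an F-box protein that targets cyclin D1. Dtl, another part of the p21Cip1 ligase, was at 3883 ± 539 in 4T1 and 3886 ± 504 in 4TO7 (limma adjusted p = 0.992). Cul4b, also in the list, was higher on average in 4TO7 (4798 ± 817 and 6148 ± 407, limma adjusted p = 0.0834) and was not called. With equal totals the split was 4 and 2, and with quantile normalisation the count higher in 4TO7 was also 2. Without 4TO7 replicate 3 the count higher in 4T1 was 4, and without 4T1 replicate 2 the count higher in 4TO7 was 1.

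Of 23 tested regulators of CDK inhibitor transcription (24 listed), 4 were called higher in 4T1 and 7 in 4TO7 (median -0.29). Ets2 (9.68-fold) and Ets1 (3.36-fold), activators of p16Ink4a transcription, were higher in 4T1. Klf4, an activator of Cdkn1a (5.08-fold), and Id2, an antagonist of basic helix-loop-helix factors (2.29-fold), were higher in 4TO7. Without 4TO7 replicate 3 the count higher in 4TO7 was 4. Trp53, which encodes p53, was at 1362 ± 366 and 1164 ± 68.1 (limma adjusted p = 0.461), and its small difference turned sign without 4T1 replicate 1. Of 16 tested p53 target genes other than Cdkn1a (18 listed), 5 were called higher in 4T1 and 2 in 4TO7 (median 0.13). Perp (11.5-fold), Btg2 (10.3-fold) and Aen (3.61-fold), which act in adhesion, antiproliferation and apoptosis, were higher in 4T1. Phlda3, an Akt inhibitor, was 4.83-fold higher in 4TO7. The call of Aen was lost without 4T1 replicate 1 or replicate 2, where the counts were 3 and 1; the count higher in 4TO7 was also 1 without 4TO7 replicate 1.

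Of 20 proliferation genes, 8 were called higher in 4T1 and 0 in 4TO7 by limma (0 at an unadjusted p under 0.05, 0 by edgeR and 0 by DESeq2). The shares of all tested genes were 25.1% and 23.9%. Summed over the 20 genes, the normalised count was 223836 to 251783 in 4T1 and 157845 to 216591 in 4TO7, with 4TO7 replicate 2 the highest of its line. The count higher in 4T1 was 14 without that library and 5 without 4TO7 replicate 1 or replicate 3. Mki67, the Ki-67 gene, was among the 12 genes of the list not called. It was at 35978 ± 9349 and 35167 ± 5303 (limma adjusted p = 0.98). The part of proliferation in the differences of Cdkn1b, Cdkn2c and Ccnd2 was not tested. Without 4TO7 replicate 2, all 3 of these calls were kept. This is no test of proliferation, because that library had the highest summed count of its line.

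**Figure D5:**
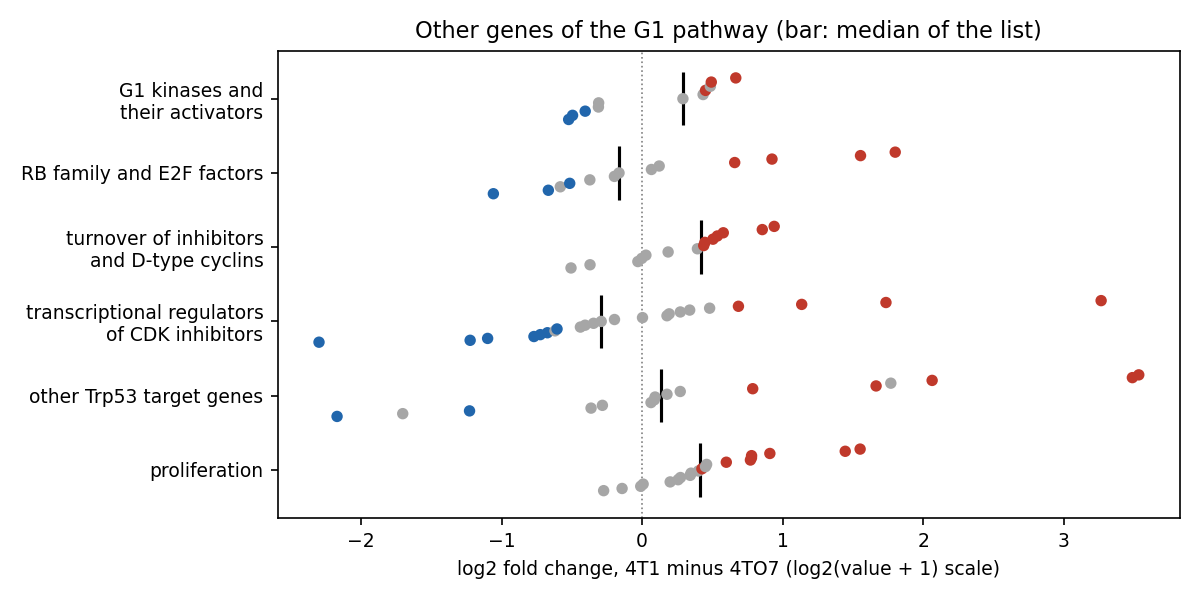
Each point is the fitted log2 fold change, 4T1 minus 4TO7, of 1 tested gene in 6 lists, red where called higher in 4T1, blue where called higher in 4TO7 and grey where not called, with a black bar at the list's median. The turnover and proliferation lists have no blue point, and the other 4 hold both colours.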

How the data were processed

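The deposited table holds, per the file headers and the values, a normalised signal for each gene and library: gene reads over a library's size factor. The same deposited table gives the authors' log2 fold change, a test score and p-values for 4TO7 over 4T1. Per the submitters' processing notes, the tools were STAR 2.5, featureCounts 1.5 and DESeq2, on GRCm38; the annotation counted and the use of strand are not given in the sources used here. All values were whole multiples of 1 step per library (100% within 1e-06 of a whole read), with size factors of 0.954 to 1.07, so reads were recovered. Groups follow the cell line in the labels. limma 3.58.1 (R 4.3.3; trend, robust) was fitted to all 6 libraries and tested on simulated data. edgeR 4.0.16 and DESeq2 1.42.0 on recovered reads, pseudocounts 0.5 and 5, other filters and scalings, the replicate block and leaving out each library were alternatives. Gene coordinates and exon lengths come from GENCODE M21 on GRCm38. Members and lists were chosen with earlier results of these data known. The text names all members, up to 4 called genes with the largest log2 fold change per list (marker and proliferation lists aside), Cdk4, Cdk6, Rb1, Trp53, Mtap, Kcnq1ot1 and Mki67, and the protein-coding genes nearest to Cdkn2a and Cdkn2b. Dtl, Cul4b, E2f1 and Tfdp2 are also named, because they did not follow other genes named from their lists. Intervals on reads cover counting error only.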

Additional observations from a re-analysis of the deposited data

How the results depend on the processing

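Over 16 alternatives Ccnd2 was the 1 member called higher in 4T1, with a log2 difference of 2.62 to 2.91 (adjusted p up to 0.000389), and Cdkn1b (-1.08 to -0.82, up to 0.00887) and Cdkn2c (-0.90 to -0.74, up to 0.00701) were called higher in 4TO7. Equal totals, which moved the median of all genes by -0.13, and quantile normalisation added Ccnd1 (-0.40 and -0.39) for 3 members; the cause was not tested. Cdkn1a ran from -0.30 to 0.16, reversed without 4T1 replicate 2 (0.16) and without 4TO7 replicate 3 (0.07). Leaving out 1 library took Trp53 from -0.0049 to 0.38, Kcnq1ot1 from -0.31 to 0.032 and Mki67 from -0.12 to 0.25; Mki67 was also reversed with equal totals (-0.12), quantile normalisation (-0.18) and edgeR (-0.0083). Of the other named genes' values, 445 were on the same side of the threshold, 25 lost a call, 8 reversed and 1 (Mtap, quantile, -0.31) gained one. Calls over all genes stayed within 1.5 times.

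With the replicate block 1 member was called higher in 4T1 and 2 in 4TO7 (3990 and 3760 of all genes), no member's call changed, and Ccnd1 had an adjusted p of 0.0763. The block gave 8 and 2 calls in the turnover list and 0 and 3 in the list of Cdkn2a neighbours; the other lists' counts stayed within 1.5 times. Same-numbered libraries correlated at -0.0135, 0.266 and 0.328 in their deviations from the line means. 4T1 replicates 2 and 3 correlated best with the 4TO7 library of the same number. 4T1 replicate 1 correlated best with 4TO7 replicate 2 (0.108). The labels give no batch, and whether libraries of the same number share one was not tested. With 3 libraries per line, an exact permutation test cannot go below 0.1, and Cdkn1c, Cdkn2a and Cdkn2b lay below the low-value limit of the limma test.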
